A study of Mus musculus with 4 samples.

Results

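The 9 genes described here encode transcription factors and coactivators, among them regulators of the contractile programme of vascular smooth muscle. They are Srf, the coactivators Myocd, Mkl1 and Mkl2, the MEF2 factors Mef2a, Mef2c and Mef2d, and the developmental regulators Gata6 and Tcf21. They were taken by gene symbol, 9 of the 24342 uniquely named genes in the expression tables. Mkl1 and Mkl2 are the older symbols of Mrtfa and Mrtfb. RNA came from the aorta of C57BL/6 mice aged 3 weeks, in 2 libraries labelled KO for the GGPPS gene (Ggps1) and 2 labelled WT. Titles name male and female animals for every library, and do not say how many animals a library holds. The labels do not state in which cells Ggps1 was deleted, by which driver, or which exon was removed. Values are FPKM, that is, fragments scaled by transcript length and by the mapped fragments of the library, and so they can be set side by side between genes. Nothing says that the libraries came from separate animals, so the p-values below measure only the spread between these libraries.

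SRF is a MADS-box protein that binds the CArG box, a short A/T-rich element in promoters of contractile, cytoskeletal and immediate early genes. It has little activity of its own and takes its direction from partners. Myocardin, the product of Myocd, drives the contractile genes of smooth muscle, the MRTF proteins made from Mkl1 and Mkl2 are held by monomeric actin and reach the nucleus when actin polymerises, and the ternary complex factors couple SRF to ERK signalling. GGPPS is an enzyme of isoprenoid synthesis. MEF2 proteins share the MADS box with SRF, are held inactive by class IIa histone deacetylases and act in muscle and endothelium. GATA6 is a zinc finger factor of differentiated vascular smooth muscle, and TCF21 is a basic helix-loop-helix factor of fibroblasts and of the epicardial lineage.

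Ggps1 stood at 1.18 and 1.07 FPKM in the KO libraries, against 8.96 and 10.6 FPKM in the WT libraries, in the direction of the labels. FPKM summed to between 611767 and 632918 in the KO libraries and to between 515927 and 520478 in the WT libraries, and read depth is not recorded in these values. Smooth muscle markers (Acta2, Myh11, Tagln and Cnn1) summed to 3739 and 4989 FPKM in KO and to 14727 and 16545 FPKM in WT, and all 4 were lower. All 5 tested endothelial markers, 5 of 6 fibroblast markers, 2 of 3 tested skeletal muscle markers and the 1 tested fat marker were lower too, the exception among fibroblast markers being Lum. All 6 macrophage markers and the 4 tested leukocyte markers were higher, and the macrophage sum was 424 and 353 FPKM in KO against 55.9 and 57.7 FPKM in WT. Of 4 tested heart muscle markers 3 were lower and 1, Tnnt2, was higher, and of 2 tested glial markers 1 was higher and 1 lower. Lower and higher here mean a limma adjusted p under 0.05, as for 30.6% and 35.2% of the 12312 genes tested. Some of these markers entered the test through 1 genotype alone, so that their direction was fixed by the filter: Adgre1, Ptprc and Itgb2 through KO, and Actn2 (heart muscle), Ckm (skeletal muscle) and Cidea (fat, the only one tested) through WT. No mesothelial marker reached 1 FPKM in any library. In bulk tissue, fewer cells of a type and less RNA per cell cannot be told apart, and the part that these shifts in markers have in the results below was not tested.

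All 9 factors were lower in KO. Both KO libraries lay below both WT libraries for each of them, a pattern found for 39.6% of the 12312 genes tested. The fall was largest for Myocd, at 28.6% of its WT mean, and Srf, Mef2c and Tcf21 were also under 50% of theirs. It was smallest for Gata6, at 79.0% of its WT mean. By limma on log2(FPKM + 1), with p-values adjusted over all tested genes, 9 of 9 passed the threshold of 0.05 as lower, where 30.6% of all tested genes were called lower, 35.2% higher and 65.7% in either direction. The median log2 fold change of the 9 was -0.77, against 0.03 for all tested genes. As deposited, 4331 genes were called higher and 3762 lower; with column totals made equal, 3104 were higher and 5562 lower, the median of all genes shifted by -0.24 to -0.21, and all 9 factors lay below that median, the nearest being Gata6 at -0.59. Tcf21 was under 1 FPKM in both KO libraries and entered the test through the WT libraries alone, so it could only have been called lower.

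**Figure D1:**
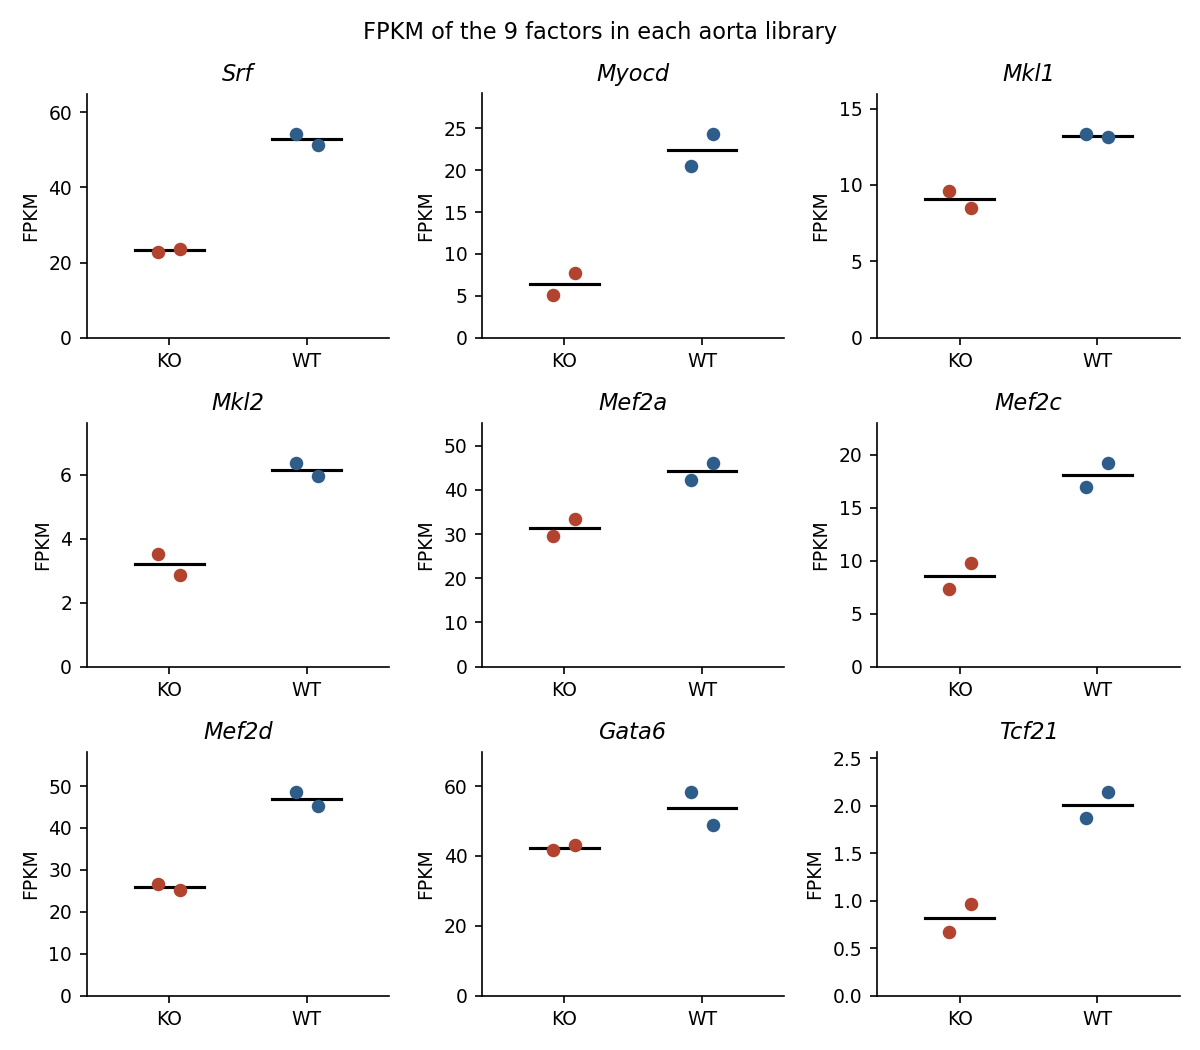
FPKM (vertical axis, from 0) of each factor in the 2 KO and the 2 WT aorta libraries; points are libraries and lines are the mean of a genotype. Both KO points sit under both WT points in every panel, with the widest gap relative to the WT mean for Myocd and the narrowest for Gata6.

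Srf itself lies on chromosome 17 of GRCm38, the assembly also called mm10 (46548329 to 46556175, minus strand), and its longest transcript has 7 exons. Its level was 22.9 and 23.7 FPKM in the KO libraries, against 54.2 and 51.5 FPKM in the WT libraries. The replicates of each genotype lay close together and the genotypes were far apart. The KO mean was 44.2% of the WT mean, a log2 fold change of -1.15 (SE 0.10, limma adjusted p = 4.4e-07), and 5.73% of tested genes had a more negative value. In WT, Srf was the second most abundant of the 9 factors, at 52.8 ± 1.94 FPKM (SD, n = 2), and its libraries overlapped those of the leading gene Gata6. In KO it held rank 4 at 23.3 ± 0.58 FPKM (SD, n = 2), behind Gata6, Mef2a and Mef2d with no overlap. SRF is known to regulate its own gene, and the stretch of 250 bases before the RefSeq start of Srf (GRCm38) held 2 CArG boxes, shown in capitals, which begin 82 and 62 bases before the start.
Srf, chr17:46556163-46556412, minus strand: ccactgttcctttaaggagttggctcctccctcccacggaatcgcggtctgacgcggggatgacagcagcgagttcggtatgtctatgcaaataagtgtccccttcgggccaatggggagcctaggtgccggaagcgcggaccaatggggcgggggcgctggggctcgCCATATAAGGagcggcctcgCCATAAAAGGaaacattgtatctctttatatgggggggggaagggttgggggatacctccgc

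The CArG box was searched as CC, then 6 letters that are each A or T, then GG, a pattern that reads alike on both strands. Windows ran from 250 bases before to 50 bases after each RefSeq start, and 1.63% of 32851 such windows held a match. Among the factors 7 had a window, and Srf was the only one of them with a CArG box.

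Myocd (chromosome 11, 65176561 to 65269989, minus strand, 14 exons) encodes a potent coactivator of SRF in smooth muscle. It stood at 5.04 and 7.76 FPKM in the KO libraries, against 20.5 and 24.3 FPKM in the WT libraries. The KO libraries differed more from each other here than for Srf, yet the higher one remained far under the lower WT value. The log2 fold change was -1.68 (SE 0.16, limma adjusted p = 7.06e-07), and 1.99% of tested genes lay below it. Over the alternative settings it ranged from -1.99 to -1.27 and was called each time.

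The MRTF genes fell less. Mkl1 (MRTF-A, chromosome 15, 81012281 to 81190757, minus strand, 15 exons) was at 9.61 and 8.51 FPKM in KO against 13.3 and 13.1 FPKM in WT. That is 68.5% of the WT mean, a log2 fold change of -0.50 (SE 0.12, limma adjusted p = 0.00203). Mkl2 (MRTF-B, chromosome 16, 13256481 to 13417529, plus strand, 15 exons) was at 3.52 and 2.88 FPKM in KO against 6.37 and 5.96 FPKM in WT. It was the least abundant of the 3 coactivators in every library, and its fall to 51.9% of the WT mean gave a log2 fold change of -0.77 (SE 0.13, limma adjusted p = 0.000129). With length and GC trends removed, an alternative chosen after seeing the data, the values were -0.30 for Mkl1 and -0.45 for Mkl2, both still called. With equal column totals Mkl1 was at -0.77.

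The makeup of the coactivator family differed between genotypes. Myocd made up 27.8% and 40.5% of the summed FPKM of the 3 genes in the KO libraries, against 51.0% and 56.0% in the WT libraries. Mkl1 made up 52.9% and 44.4% in KO against 33.1% and 30.3% in WT. The leading coactivator transcript was therefore Mkl1 in both KO libraries and Myocd in both WT libraries, at 1.91 and 1.10 Mkl1 per Myocd in KO and 0.650 and 0.540 in WT. The Mkl2 share, 19.4% and 15.0% in KO and 15.8% and 13.7% in WT, overlapped between genotypes. The 3 coactivators together summed to 18.2 and 19.1 FPKM in KO against 40.2 and 43.4 FPKM in WT. Set against Srf in the same library, that sum was 0.793 and 0.806 in KO, inside the WT values of 0.742 and 0.843. For these shares no test is given, since the smallest two-sided p of an exact permutation test with 2 libraries a genotype is 0.333.

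**Figure D2:**
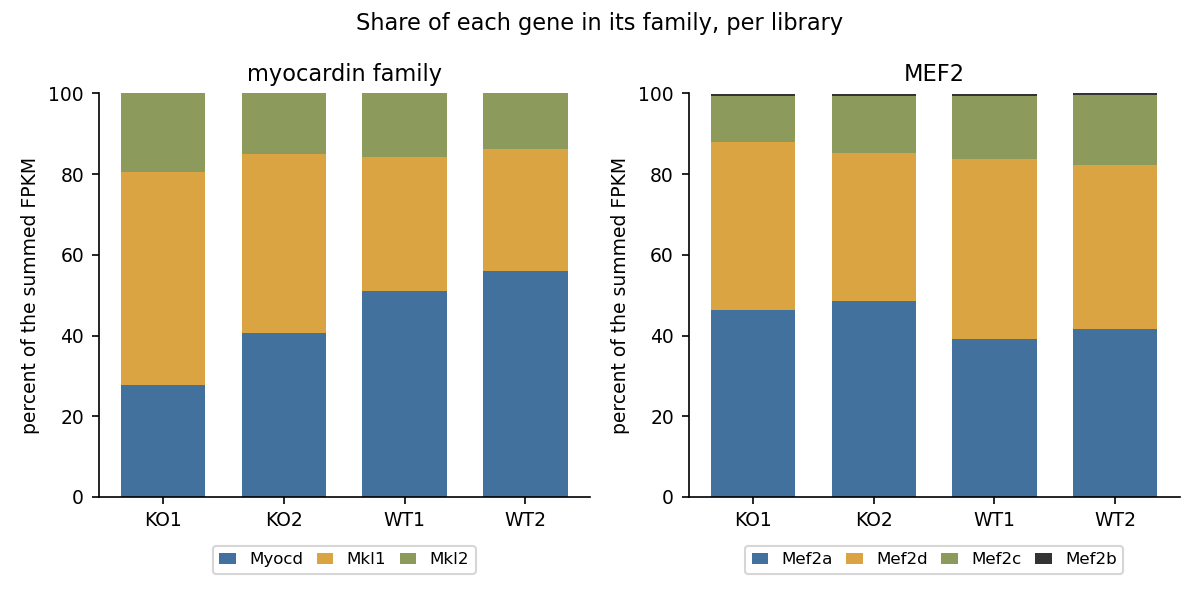
Percent of the summed FPKM of the myocardin family (left) and of the MEF2 family (right) held by each gene, 1 bar per library, KO1 and KO2 before WT1 and WT2. Myocd holds 27.8% and 40.5% of its family in KO and 51.0% and 56.0% in WT, while Mef2a and Mef2d lead the MEF2 family in every library.

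Partners and inhibitors of SRF were lower in 8 of 13 cases and higher in 2. Of all tested genes, 30.6% were called lower and 35.2% higher. The median log2 fold change of the list was -0.51. It was -0.33 with a pseudocount of 5 and -0.78 with equal column totals. Csrp1, among the 8, is also counted in the list of contractile genes below. Csrp1 and Csrp2, LIM proteins that bridge SRF and GATA factors, stood at 389 ± 42.3 and 954 ± 165 FPKM in KO, against 1421 ± 76.4 and 2245 ± 1.87 FPKM in WT (SD, n = 2 each). Pias1, a SUMO ligase that binds SRF, fell by 0.93 on the log2 scale. Klf4, a zinc finger factor known to repress Myocd and its targets, was at 55.5 and 62.4 FPKM in KO against 12.5 and 14.2 FPKM in WT, and its log2 fold change was 2.06 (SE 0.12, limma adjusted p = 3.7e-09). Per library there were 11.0 and 8.04 FPKM of Klf4 for each FPKM of Myocd in KO, against 0.607 and 0.586 in WT. The ternary complex factors did not move as one: Elk1 fell by 0.49 and Elk3 rose by 0.42 on the log2 scale, and Elk4 was at 3.18 ± 0.13 FPKM in KO and 3.26 ± 0.14 FPKM in WT (SD, n = 2 each). The Elk3 call ended without WT library 1 or 2 (limma adjusted p = 0.0649 and 0.0639) and with equal column totals (0.151), which left Klf4 as the 1 higher gene. Among settings that keep all libraries, the call of Abra, an actin-binding activator of MRTF, ended with no filter (limma adjusted p = 0.0841) and with robust estimation in limma (0.0523). The log2 fold change of Abra, -0.69, was -0.34 without KO library 1.

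Contractile genes known to depend on SRF and myocardin were lower in 17 of 18 cases, against 30.6% of all tested genes. The median log2 fold change of the list was -2.15. Synpo2, an actin-bundling protein, was at 10.3 ± 2.87 FPKM in KO and 74.7 ± 3.76 FPKM in WT (SD, n = 2 each; log2 fold change -2.77, limma adjusted p = 2.4e-09). Lmod1, which nucleates actin filaments, was 4.35-fold lower and the myosin light chain Myl9 was 4.96-fold lower. The exception was Synm, an intermediate filament protein, at 5.45 ± 0.67 FPKM in KO and 5.34 ± 0.48 FPKM in WT (SD, n = 2 each); its log2 fold change of 0.02 did not pass (limma adjusted p = 0.887), and it was called higher at 0.35 with length and GC trends removed. The 4 smooth muscle markers given above are themselves members of this list, so their lower sum is not a separate observation. The call of Actg2, a smooth muscle actin, ended with robust estimation in limma (adjusted p = 0.0527).

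Cytoskeletal targets of MRTF and SRF were split. Of 18 genes 11 were lower and 4 higher, against 30.6% and 35.2% of all tested genes. The median log2 fold change of the list was -0.82. Fhl1, a LIM-only protein, stood at 228 ± 9.37 FPKM in KO and 688 ± 3.86 FPKM in WT (SD, n = 2 each; log2 fold change -1.59, limma adjusted p = 5.16e-09), and Flna, the actin cross-linker filamin A, was 3.91-fold lower. Ankrd1, a muscle ankyrin repeat protein, was 6.25-fold higher and Ctgf, a secreted matricellular protein, was at 1769 ± 160 FPKM in KO and 612 ± 5.29 FPKM in WT (SD, n = 2 each; log2 fold change 1.53, limma adjusted p = 1.05e-08). Both are also known targets of YAP and TEAD. The other 2 higher genes were Tpm4, a tropomyosin, and Itga5, an integrin chain. The log2 fold change of Actb, -0.25, was -0.16 without WT library 2 and -0.13 without KO library 1. Among settings that keep all libraries, its call ended with a pseudocount of 0.1 (limma adjusted p = 0.0529), with no filter (0.152) and without the variance trend (0.0944). That of Filip1l ended with robust estimation (limma adjusted p = 0.0504). Cyr61, at 0.31 and not called, was called higher at 0.46 without WT library 2 and at 0.53 without KO library 1.

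Immediate early genes that SRF shares with the ternary complex factors were higher in 5 of 9 cases and lower in 3. Of all tested genes, 35.2% were called higher and 30.6% lower. The median log2 fold change of the list was 0.65. That median was 0.40 with equal column totals, and 0.37, with 3 genes higher and 2 lower, under a filter of 5 FPKM. Junb, an AP-1 subunit, was at 110 ± 11.7 FPKM in KO and 26.9 ± 3.44 FPKM in WT (SD, n = 2 each; log2 fold change 1.99, limma adjusted p = 7.27e-09). Egr2 and Egr3, zinc finger factors of the same family as Egr1, stood at 4.15 ± 0.56 and 4.37 ± 0.03 FPKM in KO, against 0.333 ± 0.026 and 0.703 ± 0.029 FPKM in WT (SD, n = 2 each), and both entered the test through the KO libraries alone, so they could only have been called higher. Ier2, an early response factor, was 1.88-fold higher. Fos, Fosb and Btg2 were the 3 lower genes; the fall of Fos, 0.88 on the log2 scale, was 0.53 without KO library 1, and that of Btg2 was not called without WT library 1 (limma adjusted p = 0.107). Fos is the classical target of SRF with its ternary complex partners, so within this list the direction differed from gene to gene.

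Of the listed genes with a CArG box in a window, Myl9, Vcl, Fhl1, Fhl2, Cnn2, Filip1l, Hopx and Lmcd1 were lower. Actg1 was not called. Egr2, which entered the test through the KO libraries alone, was the only higher gene. The shares of all tested genes were 30.6% lower and 35.2% higher, and a link between the box and the calls was not tested. A match was found for 6 of the 15 cytoskeletal targets with a window and 1 of 14 contractile targets (Myl9). It was found for 1 of 6 immediate early genes (Egr2), 1 of 10 SRF partners (Hopx) and 1 of 6 genes of the GATA list (Lmcd1). Of 27025 genes with at least 1 window, 1.81% had a match. The windows cover proximal promoters only, and a match is a description of letters, not of binding. To show boxes beside genes that were lower, that did not pass and that were higher, stretches around the match are printed for Myl9, Vcl, Fhl1 and Cnn2 (lower), Actg1 (not called) and Egr2 (higher), all 5′ to 3′ on GRCm38 with the box in capitals. Fhl1 has 2 windows and Egr2 has 5, and the first window with a match is shown for each.
Myl9, chr2:156775253-156775362, plus strand: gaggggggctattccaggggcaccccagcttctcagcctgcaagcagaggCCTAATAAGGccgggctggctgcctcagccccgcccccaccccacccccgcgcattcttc
Vcl, chr14:20929148-20929230, plus strand: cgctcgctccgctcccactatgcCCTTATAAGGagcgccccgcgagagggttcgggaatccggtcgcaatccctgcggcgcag
Fhl1, chrX:56779531-56779640, plus strand: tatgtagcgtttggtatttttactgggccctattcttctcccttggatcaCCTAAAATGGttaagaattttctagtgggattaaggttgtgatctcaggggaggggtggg
Cnn2, chr10:79988494-79988599, plus strand: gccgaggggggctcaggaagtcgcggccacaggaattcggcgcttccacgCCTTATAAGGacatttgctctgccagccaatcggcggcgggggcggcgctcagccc
Actg1, chr11:120348526-120348635, minus strand: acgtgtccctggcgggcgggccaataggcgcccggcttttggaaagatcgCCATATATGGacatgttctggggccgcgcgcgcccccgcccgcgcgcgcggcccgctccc
Egr2, chr10:67537444-67537553, plus strand: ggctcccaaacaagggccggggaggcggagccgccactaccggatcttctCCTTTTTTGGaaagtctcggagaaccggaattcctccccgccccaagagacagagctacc

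The box of Vcl is identical to that of Cnn2. Vcl, the focal adhesion protein vinculin, was at 47.8 and 69.2 FPKM in KO against 173 and 176 FPKM in WT, and Cnn2, a calponin, fell by 0.86 on the log2 scale. Actg1, cytoplasmic gamma actin, was at 819.5 and 973 FPKM in KO and 763 and 859 FPKM in WT, ranges that overlap, and after quantile normalization it was called lower at -0.24.

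**Figure D3:**
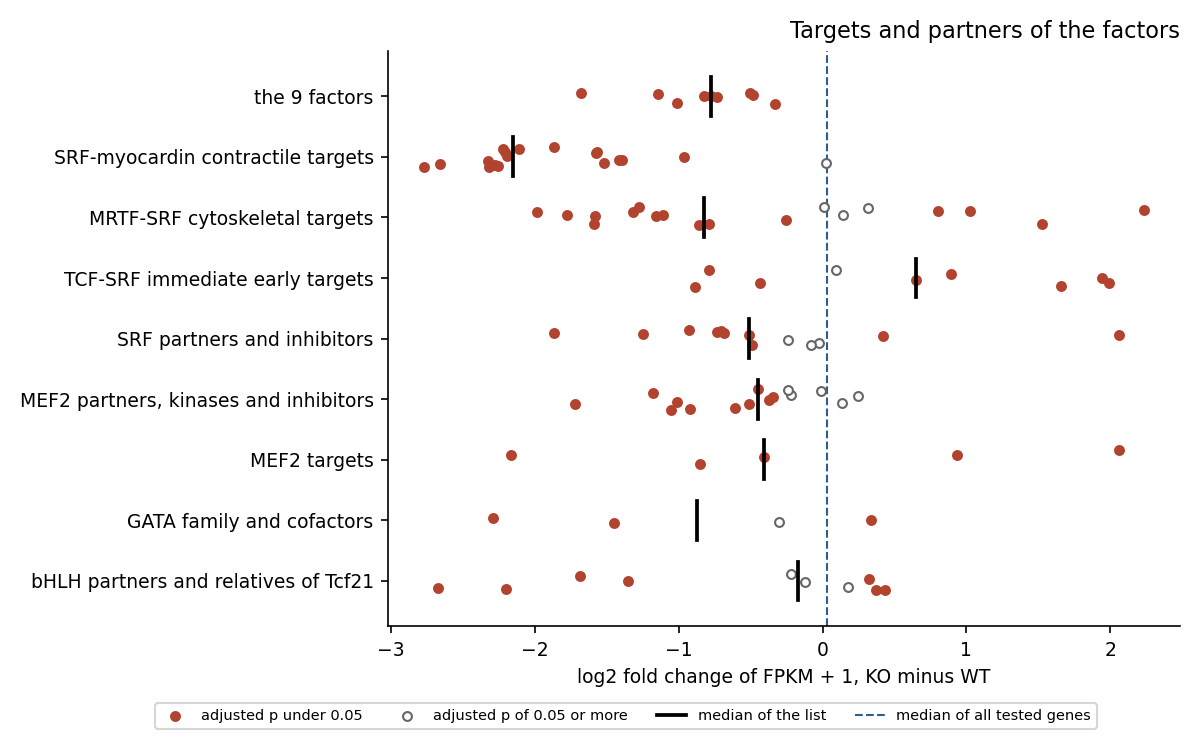
Log2 fold change of FPKM + 1, KO minus WT (horizontal axis), of each tested gene in the 9 factors and in 8 lists of their targets and partners; filled points passed an adjusted p of 0.05, open points did not, black bars are list medians and the dashed line is the median of all tested genes, 0.03. Contractile targets lie furthest to the left with a median of -2.15, and the immediate early list has its median right of the dashed line, at 0.65.

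The MEF2 factors were all lower, in the order Mef2c, Mef2d, Mef2a by size of the fall. Mef2c (chromosome 13, 83504034 to 83667080, plus strand, 12 exons), which acts in muscle, endothelium and myeloid cells, was at 7.28 and 9.77 FPKM in KO against 16.9 and 19.2 FPKM in WT. Its log2 fold change was -1.01 (SE 0.14, limma adjusted p = 2.24e-05). This fall was measured beside a higher macrophage sum and a lower endothelial sum, 59.0 and 73.7 FPKM in KO against 217 and 225 FPKM in WT. Mef2d (chromosome 3, 88142372 to 88172086, plus strand, 11 exons), a widely expressed member, was at 26.7 and 25.3 FPKM in KO against 48.5 and 45.2 FPKM in WT, a log2 fold change of -0.83 (SE 0.11, limma adjusted p = 1.13e-05). Mef2a (chromosome 7, 67231163 to 67372858, minus strand, 12 exons) was at 29.5 and 33.3 FPKM in KO against 42.3 and 46.1 FPKM in WT, and its fall of 0.48 (SE 0.11, limma adjusted p = 0.00158) was the smallest of the family; with equal column totals it was 0.75.

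By level, Mef2a and Mef2d led the family in both genotypes and Mef2b stayed under 1 FPKM in every library. In WT the 2 leading genes overlapped, with Mef2d at 46.9 ± 2.38 and Mef2a at 44.2 ± 2.64 FPKM (SD, n = 2), while in KO Mef2a was above Mef2d in both libraries. Mef2a held 46.2% and 48.5% of the MEF2 sum in KO against 39.1% and 41.5% in WT, and Mef2c held 11.4% and 14.2% in KO against 15.6% and 17.3% in WT. The Mef2d share, 41.8% and 36.8% in KO and 44.8% and 40.7% in WT, overlapped. The whole family summed to 63.8 and 68.8 FPKM in KO against 108 and 111 FPKM in WT.

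Regulators of MEF2 were lower in 10 of 15 tested cases and none was called higher. Of all tested genes, 30.6% were called lower and 35.2% higher. The median log2 fold change of the list was -0.45. It was -0.29 with length and GC trends removed and -0.71 with equal column totals. Ppp3ca, a calcineurin catalytic subunit, was at 0.24 and not called, and at 0.37 without KO library 1. With length and GC trends removed it was called higher at 0.26. All 4 class IIa deacetylases measured were lower. Hdac9 stood at 2.39 ± 0.54 FPKM in KO and 10.1 ± 0.35 FPKM in WT (SD, n = 2 each; log2 fold change -1.72, limma adjusted p = 1.22e-07) and Hdac5 at 36.6 ± 1.28 FPKM in KO and 77.1 ± 1.61 FPKM in WT (SD, n = 2 each; log2 fold change -1.05, limma adjusted p = 7.04e-07). Hdac4 fell by 0.51 and Hdac7 by 0.45, and both calls ended (limma adjusted p = 0.136 and 0.308) once trends in length and GC had been taken out; that of Hdac7 also ended without WT library 1 or KO library 2 (0.17 and 0.0544). The MEF2 coactivator gene Mamstr was 2.29-fold lower and the calcium-dependent kinase gene Camk2g 2.32-fold lower. Mapk14 and Camk2d, with falls of 0.34 and 0.37, lost their calls when either WT library was left out (limma adjusted p between 0.0545 and 0.18). Mapk7, the kinase ERK5 that activates MEF2, was at 32.2 ± 1.59 FPKM in KO and 29.2 ± 2.63 FPKM in WT (SD, n = 2 each) and did not pass.

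MEF2 targets went both ways, with 2 of 5 tested genes higher and 3 lower, where 35.2% and 30.6% of all tested genes were. Their median log2 fold change was -0.41, and -0.67 with equal column totals. Slc2a4, the insulin-responsive glucose transporter, was at 2.06 ± 0.34 FPKM in KO and 12.7 ± 0.94 FPKM in WT (SD, n = 2 each; log2 fold change -2.16, limma adjusted p = 8.84e-09). Klf2, a flow-responsive factor, was 1.93-fold higher, and Klf4 is the other higher gene. Nr4a1, an orphan nuclear receptor, fell by 0.85 on the log2 scale and by 0.49 without KO library 1. Jun fell by 0.41, a call that ended without WT library 1 or KO library 1 (limma adjusted p = 0.214 and 0.103) and with no filter (0.0507). The other 4 listed targets, Ppargc1a, Smyd1, Xirp2 and Nppa, stayed under 1 FPKM.

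The MEF2 site was searched by its consensus of 10 letters, which also reads alike on both strands, and 3.19% of the 32851 windows held a match. Mef2a and Mkl2 were the factors with a match, and the match of Mef2a spans its transcription start. The listed genes with a match were Synpo2, Fhl2, Filip1l, Hdac5, Klf2, Jun and Xirp2. Of those tested, Klf2 was called higher and all others lower, as were Mef2a and Mkl2. Xirp2 was not tested. The shares of all tested genes were 30.6% lower and 35.2% higher, and a link between the site and the calls was not tested. Stretches are shown for Mef2a, Hdac5 and Jun (lower) and for Klf2 (higher), with the site in capitals.
Mef2a, chr7:67372851-67372910, minus strand: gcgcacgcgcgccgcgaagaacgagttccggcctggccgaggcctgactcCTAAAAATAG
Hdac5, chr11:102230173-102230242, minus strand: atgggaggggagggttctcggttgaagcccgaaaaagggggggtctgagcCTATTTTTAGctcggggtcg
Jun, chr4:95052223-95052305, minus strand: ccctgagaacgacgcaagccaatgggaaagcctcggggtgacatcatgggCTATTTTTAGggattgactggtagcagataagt
Klf2, chr8:72318894-72319003, plus strand: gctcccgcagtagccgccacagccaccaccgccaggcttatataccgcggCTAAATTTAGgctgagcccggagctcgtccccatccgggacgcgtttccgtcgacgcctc

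The letters of the site in Hdac5 and Jun are identical. That of Hdac5 begins 20 bases before the start, that of Jun 33 and that of Klf2 118.

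Gata6 changed least of the factors. It lies on chromosome 18 (11052064 to 11085635, plus strand) and was the most abundant of the 9 in KO, at 41.6 and 43.1 FPKM, against 58.3 and 49.0 FPKM in the WT libraries. The groups do not overlap, but the WT libraries differed from each other by more than the gap between the lower of them and the KO libraries. Its log2 fold change of -0.33 (SE 0.11, limma adjusted p = 0.0185) was -0.21 and not called without WT library 1 (limma adjusted p = 0.335), and -0.30 and not called without KO library 1 (0.0767). With equal column totals it was -0.59. Among its relatives, Gata2, a factor of endothelium and blood cells, was at 1.37 and 1.75 FPKM in KO against 6.64 and 5.37 FPKM in WT, while Gata1, Gata4 and Gata5 stayed under 1 FPKM and Gata3 reached 1.27 FPKM in 1 WT library. Lmcd1, a LIM protein that restrains GATA6, was at 44.1 ± 11.8 FPKM in KO and 218 ± 45.9 FPKM in WT (SD, n = 2 each; log2 fold change -2.29, limma adjusted p = 4.39e-08). Of 4 tested genes of the GATA list these 2 were lower, where 30.6% of all tested genes were lower and 35.2% higher. The cofactor Zfpm1 was called higher at 0.34, a call that ended in 5 of 14 alternatives. Its value was 0.44 without WT library 1, 0.24 without WT library 2 and 0.28 without KO library 1. The list median of -0.88 rests on these 4 genes, and was -0.44 with a pseudocount of 5 and -1.45 under a filter of 5 FPKM.

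Tcf21 (chromosome 10, 22817281 to 22820174, minus strand) was the scarcest of the 9, at 0.671 and 0.962 FPKM in KO against 1.88 and 2.14 FPKM in WT. The KO mean was 40.6% of the WT mean, but the log2 fold change of -0.73 (SE 0.13, limma adjusted p = 0.000225) is held back by the pseudocount of 1 at such levels: it was -1.22 with a pseudocount of 0.1 and -0.27 with 5. Fibroblast markers summed to 358 and 381 FPKM in KO against 547 and 589 FPKM in WT, and no mesothelial marker reached 1 FPKM in any library. Of the listed partners and relatives of TCF21, 10 were tested, 4 lower and 3 higher, which is near the shares of all tested genes, 30.6% lower and 35.2% higher. Their median log2 fold change of -0.17 was 0.015 without KO library 1, -0.36 without KO library 2 and -0.42 with equal column totals. The 4 lower genes were the Id genes, whose products block basic helix-loop-helix factors by pairing with them. Id2 stood at 26.1 ± 11.6 FPKM in KO and 164 ± 13.6 FPKM in WT (SD, n = 2 each; log2 fold change -2.68, limma adjusted p = 7.51e-08) and Id3 at 143 ± 19.5 FPKM in KO and 463 ± 30.3 FPKM in WT (SD, n = 2 each; log2 fold change -1.69, limma adjusted p = 1.52e-08), while Id4 and Id1 had log2 fold changes of -2.20 and -1.35. Tcf3, Twist1 and Twist2 were called higher by 0.32 to 0.43, and none of these calls remained with equal column totals; without WT library 2 only that of Twist2 did, and Twist2 was not called without WT library 1 (limma adjusted p = 0.0622).

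**Figure D4:**
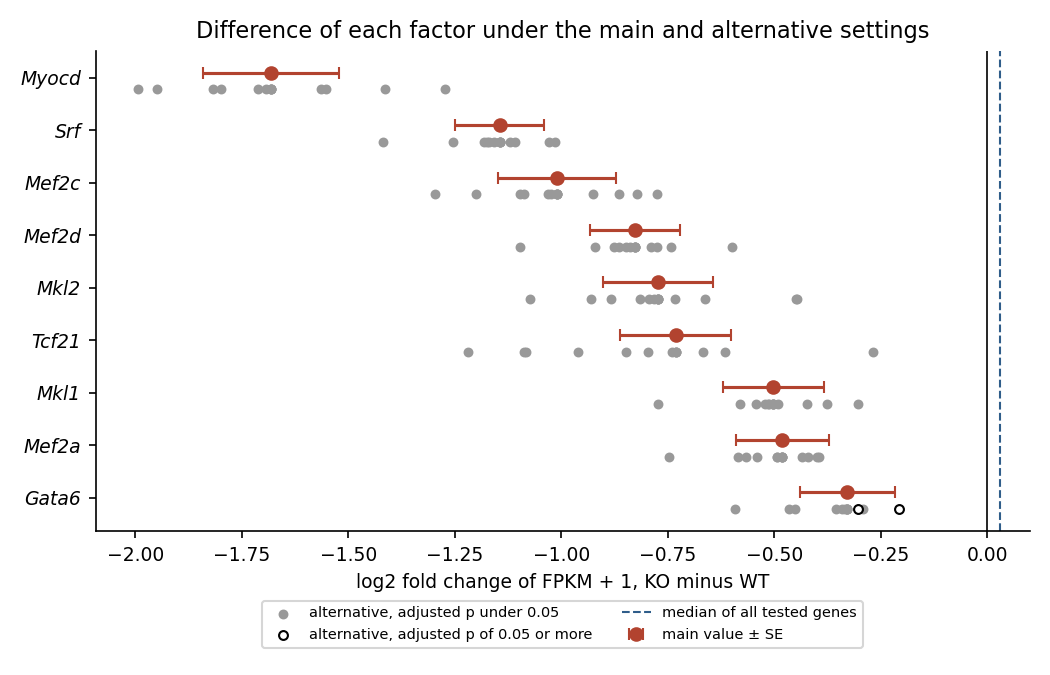
Log2 fold change of FPKM + 1, KO minus WT (horizontal axis), of each factor: red points with bars are the main value ± SE, grey points the alternative settings, and open circles alternatives that did not pass. All points lie left of 0, from Myocd at -1.68 to Gata6 at -0.33, and open circles appear for Gata6 only.

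Ranked by level, the KO libraries ran Gata6, Mef2a, Mef2d, Srf, Mkl1, Mef2c, Myocd, Mkl2 and Tcf21, and the WT libraries Gata6, Srf, Mef2d, Mef2a, Myocd, Mef2c, Mkl1, Mkl2 and Tcf21. Neighbours whose libraries overlapped were Mkl1 with Mef2c and Mef2c with Myocd in KO, and Gata6 with Srf and Mef2d with Mef2a in WT. Myocd thus stood at rank 7 in KO and at rank 5 in WT. Within the KO pair, library 1 was the lower for 6 factors and the higher for Mkl1, Mkl2 and Mef2d. The ratio to library 2 was lowest for Myocd at 0.650, Tcf21 at 0.697 and Mef2c at 0.745. Over all genes the median-of-ratios scale was also lower in KO library 1, at 0.970 against 1.047 in KO library 2. The share of all genes that were lower in library 1 was not computed. Smooth muscle marker sums also differed within that pair, with 3739 FPKM in library 1 and 4989 FPKM in library 2.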

How the data were processed

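Per the labels, polyadenylated RNA of mouse aorta was made into Illumina libraries. The authors deposited FPKM values, 1 file per library, per the file headers, where the unit is misspelt. The build mm10 is listed in the submitters' processing notes, as are the programs DESeq2 1.16.1, featureCounts 1.5.0-p3 and HISAT2 2.0.5, without their roles. Neither the program behind the FPKM nor the use of strand in counting is stated in the labels. No common read step was found at low values (at most 0.485% of low genes shared 1 ratio between 2 libraries), so depth is unknown and no count model was used.

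The 12312 genes that reached 1 FPKM in 2 or more libraries were fitted on log2(FPKM + 1) in limma 3.58.1 under R 4.3.3, letting the variance follow mean expression, and p-values were adjusted by Benjamini-Hochberg with a threshold of 0.05. Each test had 13.4 degrees of freedom in total. Percentages and folds of level are ratios of mean FPKM. Libraries were grouped by the genotype label.

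The 9 factors and the lists of their targets, partners and cell markers were chosen with earlier results of these data known. Text names all factors, and of each list the called genes with the smallest p, up to 4. Others (among them Acta2, Synm, Actg1, Vcl, Cnn2, Jun, Fos, the Elk genes, Hdac4, Hdac7, Mapk7, Tpm4, Itga5) were named after their values were seen. Alternatives were 13 planned settings and 1 added later. Gene coordinates are those of GENCODE M21 (GRCm38), and promoter sequences are those of RefSeq (GRCm38.p6). A further list of genes is not reported here.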

Additional observations from a re-analysis of the deposited data

How the results depend on the processing

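All 9 factors kept a negative direction under each of the 14 alternatives in which they could be fitted; Tcf21 had no value under a filter of 5 FPKM. Gata6 lost its call in 2 of them, so that the count of lower factors ranged from 8 to 9 over the settings that leave out 1 library; its value there ranged from -0.45 to -0.21. Of all tested genes, 3104 were called higher and 5562 lower with equal column totals; after quantile normalization the split was 3952 and 4324, and without KO replicate 2 it was 3959 and 3994. Counts of higher genes were small and moved with the settings. With equal column totals they were 1 for SRF partners, 0 for the GATA list and 0 for bHLH relatives of Tcf21. After quantile normalization there was 1 in the bHLH list. No filter left 0 in the GATA list, and a filter of 5 FPKM left 3 immediate early genes. With length and GC trends removed, 1 contractile target and 2 MEF2 regulators were called higher. Over the settings that leave out 1 library, higher counts ranged from 1 to 2 for SRF partners, from 0 to 1 for MEF2 regulators, from 0 to 1 for the GATA list and from 1 to 3 for the bHLH list, whose median of -0.17 ranged from -0.36 to 0.015, positive only without KO replicate 1. Counts of lower genes moved by no more than 1.5 times in any list under any alternative. Several uncalled genes changed sign between settings. Those that were also called after turning round were Actg1, at -0.24 after quantile normalization, and Myh9, at -0.25 with equal column totals. Myh9 was called in the other direction, at 0.41, with length and GC trends removed. The cause of these shifts was not tested. No paired analysis was possible because the replicate numbers only name the libraries. With the depth unknown and 2 libraries a genotype, precision rests on the spread limma shares across genes.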

Other observations

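Of all tested genes, the 3 whose values over the 4 libraries lay closest to those of Myocd, by the root mean square distance between log2(FPKM + 1) profiles centred on their means, were Gstk1 (distance 0.0186), Cav1 (0.0338) and Atp2b4 (0.0361). Gstk1, a glutathione transferase, was at 5.25 and 8.12 FPKM in KO against 21.1 and 25.9 FPKM in WT, Cav1, the coat protein of caveolae, at 103 and 140 FPKM in KO against 361 and 422 FPKM in WT, and Atp2b4, a plasma membrane calcium pump, at 10.8 and 15.6 FPKM in KO against 42.8 and 48.4 FPKM in WT. With 4 libraries in 2 groups such closeness is a description only.

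Genes annotated on the opposite strand overlap 7 of the 9 factors, Myocd and Mef2c being the exceptions, and the use of strand in counting is not stated. Without it, reads in exons shared by such a pair cannot be told apart. Overlap was taken between whole gene spans, introns included, and the overlap of exons was not measured. For those with a value, 1700113A16Rik over Mef2d was at 7.50 and 8.72 FPKM in KO against 14.3 and 14.7 FPKM in WT, 1010001N08Rik over Gata6 at 6.51 and 7.76 FPKM in KO against 9.10 and 10.8 FPKM in WT, Lysmd4 over Mef2a at 5.15 and 4.71 FPKM in KO against 8.48 and 8.11 FPKM in WT, and Sgsm3 over Mkl1 at 5.82 and 6.56 FPKM in KO against 7.75 and 7.36 FPKM in WT. Sgsm3 was the 1 of these 4 not called lower (limma adjusted p = 0.0843).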
